A study of Mus musculus with 2 samples.

Results

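Wide peaks were the peaks of library 1 on chromosomes 1 to 19 that spanned at least 1000 bp from start to end. There were 3875 of them among 576675 autosomal peaks of that library (0.672%, 95% exact interval 0.651 to 0.693), and 585072 peaks were listed in both libraries together. The other 572800 autosomal peaks, called narrower peaks here, spanned less than that, and 41144 of them, called intermediate peaks, reached 500 bp. The members were chosen by their width, so width, fold, pileup and every other value of the same peak call are given as a description and carry no test.

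The data came from chromatin immunoprecipitation followed by sequencing (ChIP-seq) on mouse embryo heads that had been snap-frozen at stage E10.5, with the antibody sc-9996 against green fluorescent protein (GFP). The series is titled after a role of the histone H3.2 in the eye. The 2 libraries carried the same labels, which named no contrast, strain, sex, number of pooled embryos or protein fused to GFP, and did not say whether either library was a control. Library 2 listed 118 autosomal peaks, the widest peak of its whole list spanned 573 bp, and it therefore held no member.

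Histone H3.2 is made during DNA replication and is laid down on newly copied DNA, whereas the variant H3.3 is placed throughout the cell cycle, mainly where chromatin is being transcribed. In ChIP-seq a factor bound at 1 site usually gives a narrow peak, and a histone or histone mark spread over many nucleosomes can give a wide one. A peak caller also lists a wide peak where neighbouring stretches above its threshold lie close enough to be joined. E10.5 is the stage at which the optic cup and lens vesicle form in the mouse.

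Sequence was available for the promoter windows of genes, from 250 bases before to 50 bases after a transcription start, so the members are shown through the promoters that lay wholly inside them. Of 20085 such windows of autosomal protein-coding genes, 76 windows of 75 genes (0.378%) were held whole by a wide peak. The 6 windows below are those of genes on the lists described further on, taken in order of peak width. They are RefSeq sequences of build GRCm38.p6, printed 5′ to 3′ on the strand of the gene, with CpG dinucleotides in capitals.
Kcnip1: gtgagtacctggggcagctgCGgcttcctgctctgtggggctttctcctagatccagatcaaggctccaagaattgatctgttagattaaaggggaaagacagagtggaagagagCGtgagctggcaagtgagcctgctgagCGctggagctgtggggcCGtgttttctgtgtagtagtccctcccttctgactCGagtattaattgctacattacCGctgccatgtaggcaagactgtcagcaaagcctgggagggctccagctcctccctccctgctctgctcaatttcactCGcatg
Kcnip2: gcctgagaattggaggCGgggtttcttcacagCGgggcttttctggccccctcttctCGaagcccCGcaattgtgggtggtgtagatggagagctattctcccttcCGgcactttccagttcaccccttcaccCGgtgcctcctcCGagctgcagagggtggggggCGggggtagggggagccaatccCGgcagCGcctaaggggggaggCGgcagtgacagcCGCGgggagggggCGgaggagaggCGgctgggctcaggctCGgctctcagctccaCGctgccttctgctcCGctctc
Col4a4: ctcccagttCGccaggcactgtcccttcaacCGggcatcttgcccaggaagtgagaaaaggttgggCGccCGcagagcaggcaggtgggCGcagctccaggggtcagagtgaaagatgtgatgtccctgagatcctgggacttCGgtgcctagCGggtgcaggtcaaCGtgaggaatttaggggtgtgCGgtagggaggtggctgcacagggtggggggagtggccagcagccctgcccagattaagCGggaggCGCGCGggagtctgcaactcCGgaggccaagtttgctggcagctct
Flt1: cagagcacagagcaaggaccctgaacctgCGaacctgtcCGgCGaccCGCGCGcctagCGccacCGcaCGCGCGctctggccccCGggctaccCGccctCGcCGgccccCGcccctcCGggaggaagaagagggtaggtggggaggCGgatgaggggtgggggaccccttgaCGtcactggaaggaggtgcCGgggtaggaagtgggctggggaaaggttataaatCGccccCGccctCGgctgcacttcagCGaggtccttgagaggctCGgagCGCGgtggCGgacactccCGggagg
Crybb1: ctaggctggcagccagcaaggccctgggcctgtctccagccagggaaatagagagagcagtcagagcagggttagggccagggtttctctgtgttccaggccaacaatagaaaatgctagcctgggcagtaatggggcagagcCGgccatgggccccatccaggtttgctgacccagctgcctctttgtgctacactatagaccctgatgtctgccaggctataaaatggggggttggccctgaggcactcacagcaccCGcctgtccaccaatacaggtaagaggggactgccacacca
Kcnc4: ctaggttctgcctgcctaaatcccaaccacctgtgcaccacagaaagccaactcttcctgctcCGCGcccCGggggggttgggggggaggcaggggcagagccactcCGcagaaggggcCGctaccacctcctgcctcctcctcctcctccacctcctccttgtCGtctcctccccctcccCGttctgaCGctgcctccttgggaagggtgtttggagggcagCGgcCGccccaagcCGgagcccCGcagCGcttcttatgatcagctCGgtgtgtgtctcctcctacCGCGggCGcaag

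These windows ranged from 2 to 29 CpG dinucleotides. Kcnip1 and Kcnip2, which encode partner proteins of voltage-gated potassium channels, had 7 CpGs at chr11:33993144-33993443 and 18 CpGs at chr19:45816014-45816313, both on the minus strand. Flt1, which encodes a receptor for vascular endothelial growth factor, had the most, with 29 CpGs and a GC content of 70.7% at chr5:147725962-147726261 (minus strand). The fewest, 2 CpGs with a GC content of 58.3%, belonged to Crybb1, a lens beta crystallin gene, at chr5:112255570-112255869 (plus strand). Col4a4, a basement membrane collagen gene, had 14 CpGs at chr1:82586800-82587099 (minus strand), and the potassium channel gene Kcnc4 had 17 at chr3:107458849-107459148 (minus strand).

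Promoters held whole by a wide peak had a higher median GC content than promoters without a peak, and a lower median ratio of observed to expected CpG whose interval overlapped theirs. Their median GC content was 61% (interval of the median 58.7 to 62.7, n = 76), against 59.3% (59 to 60) for windows touched by intermediate peaks and 53% (52.7 to 53.3) for windows with no peak. The median ratio of observed to expected CpG was 0.378 (0.318 to 0.525) in wide peaks. It was 0.528 (0.506 to 0.567) in windows touched by intermediate peaks, 0.648 (0.637 to 0.659) in those touched only by peaks under 500 bp and 0.538 (0.521 to 0.555) in those with no peak. The values in wide peaks ran from 0 to 1.01, and those of all windows from 0 to 1.44. The 57 windows that lay only partly in a wide peak had a median GC content of 55.7% (55 to 57), near the 57% of all windows, and a median ratio of 0.324 (0.227 to 0.387). The motif TATAAA, searched on both strands, was present in 5 of the 76 windows (6.58%, 2.171 to 14.69), against 12.7% of all 20085, and GGGCGG was present in 37 (48.7%, 37.0 to 60.4), against 47.0% of all.

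Most members lay close to the width minimum. Their median width was 1164 bp, and 90% of them were no wider than 1610 bp. Of the 3875, 581 (14.99%) reached 1500 bp, 125 (3.23%) reached 2000 bp, 18 reached 3000 bp and 2 reached 5000 bp. Together they covered 4.91 Mb, or 3.31% of the bases in autosomal peaks. The summit, the base with the highest pileup, lay in the middle part of the peak, from 25% to 75% of its width, in 50.3% of wide peaks and 77.9% of narrower ones, although in 50.8% of intermediate peaks. The 725 members less than 50 bp above the minimum and the 957 peaks at most 50 bp below it had the same median fold, 4.85, and the same median pileup, 18 reads.

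Wide peaks had a higher fold enrichment at the summit than narrower peaks. The fold is the authors' value, a ratio of the summit pileup to the local background with the same small constant added to both. It is therefore lower than the plain ratio of pileup to background. Its median was 5.12 in wide peaks (quartiles 4.36 and 5.66, n = 3875) and 3.90 in narrower peaks (3.27 and 4.58, n = 572800), a difference of 1.22 and a ratio of 1.31. The difference was 0.431 among peaks with a −log10 q of at least 5, 0 with at least 10, and 0.539 when wide peaks were set against intermediate peaks. Fold takes few distinct values, and the interval of the wide median closed on 5.12 itself. Extended reads overlapping at the summit, its pileup, had a median of 19 in wide peaks and 15 in narrower ones. Above the narrower peaks' median fold lay 85.2% of the wide peaks.

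Wider classes had a higher median fold across the whole list. It was 3.50 below 150 bp, 4.58 from 500 to 750 bp, 4.85 from 750 to 1000 bp, 5.39 from 1500 to 2000 bp and 5.78 in the 18 peaks of 3000 bp or more. Within the wide peaks, rank correlation of width and fold was low (Spearman rho = 0.11, n = 3875 peaks of 1 library). Read the other way, 0.155% of peaks with a fold under 3 were wide (0.130 to 0.183), 0.64% of those with a fold of 4 to 5 and 3.14% (2.87 to 3.44) of those with a fold of 6 to 7. The share was 3.125% (2.62 to 3.70) of those with a fold of 7 to 8 and 4.12% (2.66 to 6.06) of those with a fold of 8 to 9. Of the 100 autosomal peaks with the highest fold, 4 were wide (4%, 1.1 to 9.926), against 0.672% of all autosomal peaks. The highest fold was 10.2 among wide peaks and 16.1 among narrower ones.

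**Figure D1:**
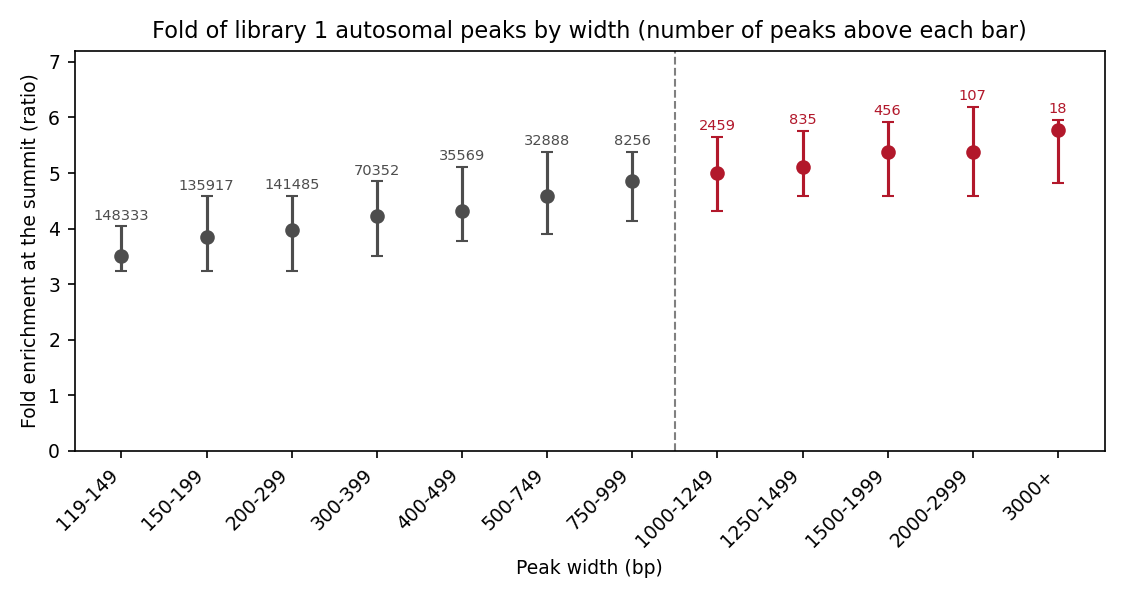
Fold enrichment at the summit (vertical axis, ratio) of library 1 autosomal peaks in 12 width classes (horizontal axis, bp). Points are medians, bars run from the first to the third quartile, numbers count peaks and the dashed line marks 1000 bp. The medians climb from 3.50 in the narrowest class to 5.78 at 3000 bp or more, and the quartile ranges of neighbouring classes overlap.

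Local background differed little for most members. The background that the caller used was the genome-wide 2.713 extended reads in 63.3% of wide peaks (61.7 to 64.8) and 66.0% of narrower ones (65.9 to 66.1). Among those peaks alone the median fold was 5.39 in wide and 4.04 in narrower peaks. A background over 2 times the genome-wide value was found in 152 wide peaks (3.92%, 3.33 to 4.58) and in 1.45% of narrower peaks (1.42 to 1.48). Of these 152, 31 lay on chromosome 8. The share grew with width, to 10.3% from 2000 to 3000 bp and to 22.2% of the 18 widest. The part of this background in the width of these peaks was not tested.

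The 12 widest peaks spanned 3353 to 8736 bp, and 6 of them lay outside protein-coding genes. The widest, at chr3:6298948-6307683, reached a fold of 5.82 with 24 reads at the summit (95% Poisson interval 15.4 to 35.7), and the nearest protein-coding gene was 308 kb away. A group of 3 lay within chr8:20646717-20707007. They spanned 5381, 4462 and 3353 bp with folds of 5.80, 4.63 and 5.96 and backgrounds of 7.79, 11.8 and 9.23 extended reads, all above 2.713. The last of these reached the 3′ end of the predicted gene Gm21119. Entries listed as long non-coding RNA genes were touched by a peak at Mup-ps15 (chr4:61684535-61688618, fold 4.47, background 5.04) and by another at Gm34992 (chr1:90445360-90448746, fold 3.41, background 8.39). The peak at chr7:41171614-41175517, with a fold of 5.66, touched no annotated gene.

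Inside genes, the widest peak lay in S100a7l2, a gene of the S100 calcium-binding family, at chr3:91095034-91099292 (4259 bp, fold 5.75). Filip1, which encodes a protein that binds filamin, held a peak of 4123 bp at chr9:79899492-79903614 with a fold of 5.92. Ints1 encodes a subunit of the Integrator complex, which processes small nuclear RNAs, and held a peak of 3569 bp at chr5:139768071-139771639 with a fold of 6.46. The peak in Flg, the filaggrin gene of the epidermal barrier, had the highest fold of the 12, 7.27, at chr3:93286536-93290064. Zbtb17, the gene of a zinc finger transcription factor, held the last of them, at chr4:141464133-141467504 with a fold of 5.66. All 5 lay within the annotated gene body.

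The 10 wide peaks with the highest folds lay mostly outside protein-coding genes and were 1008 to 1998 bp wide. The first, at chr4:68290094-68291262, reached 10.2, with 37 reads at the summit (26.1 to 51.0), and lay 470.1 kb from the nearest protein-coding gene, Brinp1. Within a long non-coding RNA gene, at chr3:120825491-120826788, lay the next, with a fold of 9.69. Dlg2, which encodes a scaffold protein of the synapse, held a peak with a fold of 9.43 at chr7:90863902-90865167, and Cd36, which encodes a fatty acid and lipoprotein receptor, held 1 with a fold of 8.62 at chr5:17786023-17787100. Of the 10, 8 touched no protein-coding gene. None of these 10 was among the 12 widest. At the low end, the 10 lowest folds ran from 1.99 to 2.33, and each of those peaks had a background of at least 5.88 extended reads.

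Wide peaks were unevenly spread over the autosomes. They numbered 1.61 per Mb in all (1.56 to 1.66), with 2.93 per Mb on chromosome 11 (2.63 to 3.25) at the top and 0.767 per Mb on chromosome 13 (0.617 to 0.943) at the bottom, a ratio of 3.82. Chromosomes 17, 4 and 8 followed chromosome 11 with 2.50, 2.39 and 2.21 per Mb, and their intervals overlapped one another and that of chromosome 11, except for chromosome 8 against chromosome 11. At the low end, chromosomes 3, 16, 14 and 1 had 0.95, 0.957, 0.969 and 1.03 per Mb, and these intervals overlapped one another and that of chromosome 13. The density of all peaks varied less, with a ratio of 1.99 between the highest and lowest autosome.

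As a share of the peaks of a chromosome, wide peaks ranged from 0.374% on chromosome 13 (0.301 to 0.460) to 0.883% on chromosome 4 (0.796 to 0.978), a ratio of 2.36. Over the 19 autosomes this share followed the density of all peaks (Pearson r = 0.78, Spearman rho = 0.81) and of protein-coding genes (r = 0.55, rho = 0.70). Without chromosomes 3 and 11 the first r was 0.76, and without chromosomes 7 and 11 the second was 0.51. These are descriptions over 19 points that share 1 library and 1 peak list.

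**Figure D2:**
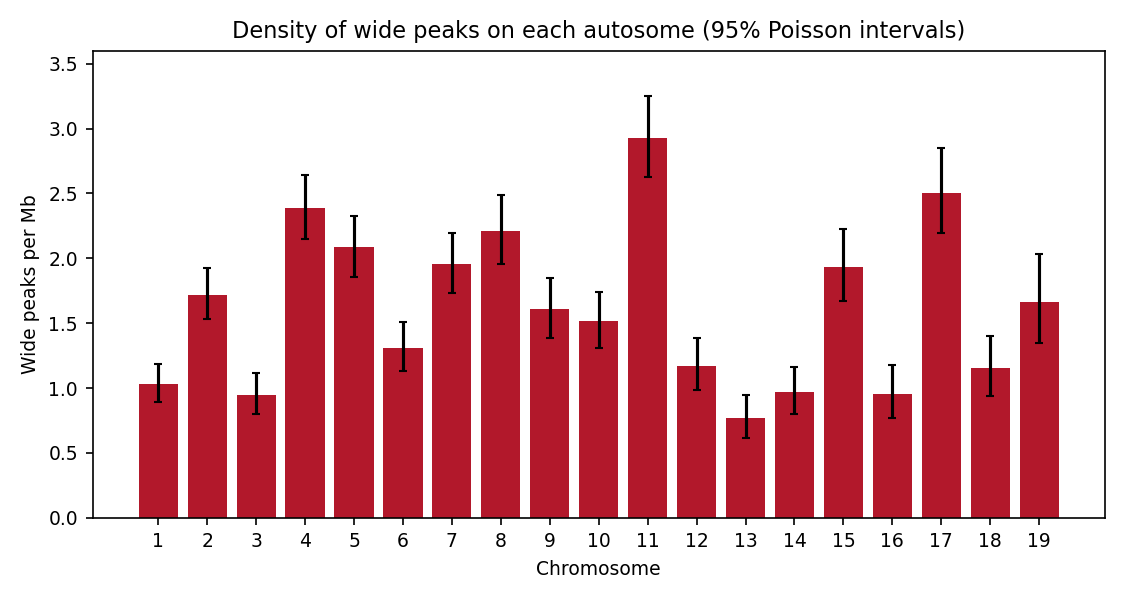
Wide peaks per Mb (vertical axis) on each autosome (horizontal axis), over the span from the first to the last peak. Bars are densities and error bars are 95% Poisson intervals that cover counting error only. Chromosome 11 stands highest at 2.93 per Mb and chromosome 13 lowest at 0.767 per Mb.

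Within chromosomes, wide peaks lay, by their medians, where peaks and genes were dense. Fixed 1 Mb windows without a protein-coding gene still held 3.82% of wide peaks (3.24 to 4.47). These windows held 3.46% (3.42 to 3.51) of narrower and 2.97% (2.81 to 3.14) of intermediate peaks. A median of 13 other peaks (13 to 14) had their summit within 10 kb of a wide peak's summit, against 8 for a narrower peak. The gap to the nearest peak was 374 bp (353 to 396) for wide peaks and 715 bp (713 to 719) for narrower ones. The fixed 1 Mb window in which a wide peak's summit fell held a median of 15 protein-coding genes (14 to 16), against 10 for narrower peaks. Intermediate peaks lay between, with 12 other peaks, a gap of 457 bp (450 to 464) and 13 genes. Another wide peak lay within 10 kb of 848 wide peaks (21.9%, 20.6 to 23.2). A wide peak lay within that distance of 13.5% of intermediate peaks (13.1 to 13.8) and 6.63% of all narrower peaks (6.57 to 6.70).

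Of 2413 windows of 1 Mb with any peak, 1369 (56.7%) held a wide peak, and 75 windows with 10 or more wide peaks held 28.0% of them, against 9.22% of all peaks. The fullest window, from 80000001 to 81000000 on chromosome 10, held 29 wide peaks and 54 protein-coding genes, and chr15:76000001-77000000 held 27 wide peaks and 52 genes. The last 5 Mb of the chromosomes held 7.64% of wide peaks (6.82 to 8.52) and 5.82% of narrower ones (5.76 to 5.88). The first 5 Mb held 4.10% (3.50 to 4.78) and 3.38% (3.33 to 3.42).

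Some wide peaks followed each other within 10 kb. There were 380 such runs with 916 wide peaks (23.6%), of which 94 held at least 3 and 29 at least 4. The longest held 10 wide peaks over 56.3 kb at chr6:114573992-114630246, touched no annotated gene and lay 12.9 kb from Atg7, a gene of autophagy. Its folds ran from 2.59 to 5.92. Next came 8 wide peaks over 38.9 kb in and beside Itpr3 on chromosome 17. Then 7 lay at chr8:55346194-55384461 among predicted genes and pseudogenes, with a median background of 15.9 extended reads and folds of 3.61 to 8.78. Another 7 lay over 21.1 kb in Ints1.

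Wide peaks were found inside protein-coding genes more often than narrower peaks, and less often between genes. By the summit, 60.8% of wide peaks (59.2 to 62.3, n = 3875) and 50.1% of narrower peaks (50.01 to 50.3, n = 572800) lay inside a protein-coding gene and over 1 kb from its ends. Between annotated genes lay 23.9% (22.6 to 25.3) of wide and 35.3% (35.2 to 35.4) of narrower peaks. Within 1 kb of a gene end lay 9.01% (8.12 to 9.95) and 6.32% (6.26 to 6.39), and other annotated genes held 6.32% (5.58 to 7.14) and 8.25% (8.18 to 8.32). Intermediate peaks stood between for the gene body (54.8%) and between genes (28.2%), and their share at gene ends, 9.73% (9.45 to 10.02), overlapped that of wide peaks. Neighbouring peaks are not independent, so these intervals are narrower than the true error.

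The order of wide and narrower peaks turned among the strongest calls, within the counting error. With a −log10 q of at least 10, 40.3% of the 472 wide peaks (35.8 to 44.8) and 44.2% of narrower peaks lay inside a gene, and 46.0% (41.4 to 50.6) and 42.6% lay between genes. At gene ends the shares were 3.602% (2.11 to 5.70) and 3.98%. Each of these intervals includes the value of the narrower peaks.

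**Figure D3:**
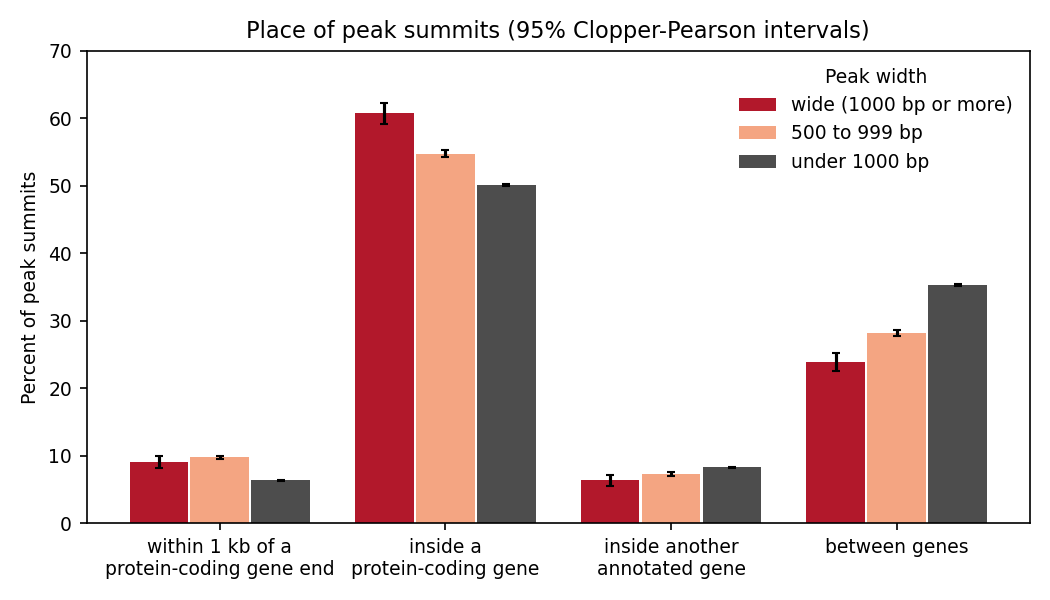
Percent of peak summits (vertical axis) in 4 exclusive places (horizontal axis), for wide peaks, intermediate peaks and all peaks under 1000 bp of library 1 autosomes. Error bars are 95% Clopper-Pearson intervals. Wide peaks stand highest inside protein-coding genes at 60.8% and lowest between genes at 23.9%.

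Median fold differed by place among wide and among intermediate peaks, and hardly at all among all narrower peaks together. Intermediate peaks had medians of 4.36 at gene ends, 4.58 inside protein-coding genes and 4.85 between genes. Wide peaks between genes had a median fold of 5.39 (5.39 to 5.63, n = 926), and narrower peaks there had 3.90. Inside protein-coding genes the medians were 4.85 (4.85 to 5.05, n = 2355) and 3.90, and at gene ends they were 4.85 (4.62 to 4.85, n = 349) and 3.77. A fold of 6 or more was reached by 28.9% of wide peaks between genes (26.04 to 32.0), against 3.89% of narrower peaks there. Inside genes it was reached by 11.8% of wide peaks (10.53 to 13.2), against 3.05% of narrower peaks. Of the wide peaks outside protein-coding genes, 34.8% (32.1 to 37.6, n = 1171) were at least 100 kb from a gene end, and this share was 28.5% (28.4 to 28.7) of narrower peaks.

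Pseudogenes also stood out. The summit lay in an annotated pseudogene for 125 wide peaks (3.23%, 2.69 to 3.83) and for 1.301% of narrower peaks (1.27 to 1.33). Long non-coding RNA genes held 249 wide summits (6.43%, 5.67 to 7.24), a lower share than the 9.87% of narrower peaks (9.80 to 9.95). A single wide summit lay in a microRNA gene, and none lay in a snoRNA, snRNA or tRNA gene, where 0 of 3875 allows a share of up to 0.0952% (exact upper limit).

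Inside genes, wide peaks gathered toward the 3′ end. Genes of at least 10 kb were cut into 10 equal segments from the transcription start to the 3′ end. Segment 10 held 22.1% of wide summits in genes (20.2 to 24.0, n = 1839), against 12.9% of narrower ones (12.7 to 13.0, n = 234101). A summit inside overlapping genes was counted for each of them, so n counts pairs of summit and gene. The intervals treat these pairs as separate. Segment 1 held 5.93% (4.89 to 7.11) of wide and 10.07% (9.95 to 10.2) of narrower summits. The 5 segments nearest the 3′ end held 69.4% (67.3 to 71.5) of wide and 53.9% (53.7 to 54.1) of narrower summits, and 59.8% (59.05 to 60.5) of summits of intermediate peaks.

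**Figure D4:**
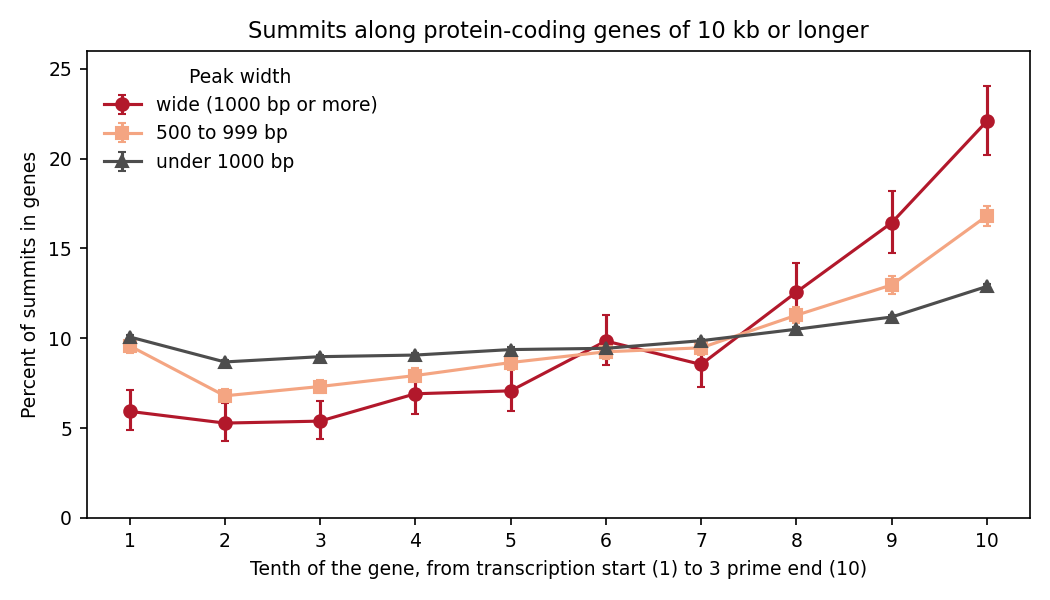
Percent of the summits inside genes (vertical axis) that lay in each of 10 equal segments from transcription start to 3′ end (horizontal axis), for protein-coding genes of at least 10 kb. Lines join wide peaks, intermediate peaks and all peaks under 1000 bp, with 95% Clopper-Pearson intervals. A summit inside overlapping genes counts for each of them. The wide peaks climb from 5.93% in segment 1 to 22.1% in segment 10, where narrower peaks reach 12.9%.

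Measured from the nearest 3′ end, 2.25% of peaks with a summit 1 to 2 kb before that end were wide (182 of 8079, 1.94 to 2.60). At 2 to 5 kb before it, 1.90% were wide (1.72 to 2.096). The share was 0.816% (0.534 to 1.19) in the first 500 bp beyond the end and 0.527% (0.506 to 0.549) farther than 10 kb away. Within 5 kb before the 3′ end, the rate was 3.65 times that beyond 10 kb. With a −log10 q of at least 10 it was 1.79 times (1.33 to 2.35). That interval treats the rate beyond 10 kb as free of error, so it is too narrow. For a short gene, a summit before the 3′ end can lie upstream of the gene. Before transcription starts, 0.730% of peaks (0.618 to 0.855) were wide at 10 to 5 kb, 0.707% (0.575 to 0.860) at 5 to 2 kb, 0.333% (0.187 to 0.549) at 2 to 1 kb, 0.420% (0.192 to 0.796) from 1 kb to 500 bp and 0.587% (0.384 to 0.859) in the last 500 bp. From 500 bp to 1 kb after the start 1.15% were wide (0.845 to 1.52), against 0.616% (0.594 to 0.640) farther than 10 kb from a start. Within 1 kb of a start lay 3.92% of wide summits (3.32 to 4.59), against 5.09% (4.88 to 5.31) for intermediate peaks and 3.36% (3.31 to 3.41) for all narrower peaks. Within 1 kb of a 3′ end lay 5.01% (4.33 to 5.75) of wide summits, against 4.21% (4.02 to 4.41) and 2.61% (2.57 to 2.66) for those groups. Strand and start were known for 16457 of 20665 autosomal protein-coding genes.

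A wide peak lay in the body or within 1 kb of an end of 2200 of the 20665 genes (10.6%, 10.2 to 11.1). These genes had a median length of 31.5 kb, against 17.5 kb for all, and 459 of them held 2 or more wide peaks, 146 held 3 or more and 30 held 5 or more. The share of genes with a wide peak climbed with length, to 22.0% (20.2 to 23.8) of the longest 10%, against 1.74% (1.22 to 2.40) of the shortest 10%. The share of a gene's peaks that were wide ran the other way, with 0.51% in the longest and 2.22% in the shortest genes. Any peak at all was held by 18623 genes (90.1%).

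Itpr3, which encodes a receptor that releases calcium from the endoplasmic reticulum, held the most wide peaks. There were 10 among its 59 peaks, and they covered 22.1% of its 65.2 kb. Zfp469, which encodes a zinc finger protein, held 9 of 256 peaks. Dnah17, a dynein heavy chain gene of cilia and flagella, held 8, and its widest spanned 2708 bp with a fold of 5.39. Ints1 had 7 wide peaks over 41.7% of its 24.4 kb. Hspg2, which encodes the basement membrane protein perlecan, held 7, as did Camta1, a transcription regulator gene of 802 kb in which wide peaks covered 1.104%. Among the clustered protocadherins, Pcdha1 held 9, Pcdha2 8 and Pcdha3 7, and these overlapping genes share a 3′ end and counted the same peaks.

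Short genes were those most fully covered. A single wide peak spanned the whole of Gm9736, Taar5, Olfr279 and Ffar1, genes of 0.903 to 1.05 kb. Taar5 encodes a trace amine receptor of the nose and had a fold of 4.23, Olfr279 encodes an odorant receptor (5.39), and Ffar1 encodes a receptor for free fatty acids (3.81). Coverage was 97.8% in Fam187a, 97.2% in the odorant receptor gene Olfr455, 96.0% in Gm51597, 95.2% in Tmem89, 94.6% in Gm51595 and 91.7% in Rprml. The 2 predicted genes Gm51597 and Gm51595 lay in a run of 5 wide peaks at chr8:55481572-55503426, where the median background was 4.20 extended reads.

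Among genes of eye formation, wide peaks were about as frequent as among all genes. Of 36 eye and lens regulators, 5 held a wide peak (13.9%, 4.67 to 29.5) and all 36 held some peak. The 5 included Bmp7, which encodes a signal of lens induction (1167 bp, fold 4.31), Prox1, needed for lens fibre elongation (1117 bp, 4.13), and Vax2, a regulator of the ventral retina (1009 bp, 5.39). Eya2, a transcriptional coactivator gene, had 1007 bp and a fold of 4.58. Of 26 crystallin and lens fibre genes, 3 held a wide peak (11.5%, 2.45 to 30.2). The connexin gene Gja3 had 1366 bp with a fold of 6.19 at chr14:57035632-57036997. The neighbours Cryba4 and Crybb1 shared the peak at chr5:112255550-112256624 (1075 bp, 4.13), which holds the Crybb1 promoter printed above.

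The compact Hox genes held none. Of 39 such regulators of regional identity, 0 held a wide peak (exact upper limit 9.03%, below the 10.6% of all genes), although 38 held a narrower one. Of their 174 peaks 0 were wide (exact upper limit 2.098%), which does not exclude the 0.829% over all genes. Their median length was 3.74 kb, against 17.5 kb for all genes. Neural patterning regulators had 1 of 36 (2.78%, 0.0703 to 14.5), in Lmx1b (1318 bp, fold 5.39). Neural crest and craniofacial regulators had 3 of 30 (10%, 2.11 to 26.5). These were Pax7 with 2 wide peaks, the wider of 1523 bp, Sox10 with 1350 bp and Dlx2 with 1125 bp.

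Lists of long genes held wide peaks more often than all genes did, but the share of their peaks that were wide was lower or close to the overall one. Of 42 very long neuronal genes with a median length of 1142 kb, 19 held a wide peak (45.2%, 29.8 to 61.3), while 0.428% of their peaks were wide (0.262 to 0.660), against 0.829% (0.798 to 0.861) over all protein-coding genes. The very long genes with a wide peak included Ptprt, which encodes a receptor phosphatase (2404 bp, 6.46), the scaffold gene Magi2 (1771 bp, 4.59) and the cell adhesion gene Ntm (1566 bp, 6.19). Collagen chain genes had 16 of 42 (38.1%, 23.6 to 54.4) and a median length of 110.4 kb, with 0.986% of their peaks wide (0.603 to 1.52). The widest there were in Col16a1 (1616 bp), Col18a1 (1530 bp), Col7a1 (1529 bp) and Col8a2 (1500 bp). Col4a4 and a neighbouring gene of the list counted the same peak of 1134 bp, so the 16 genes are not all independent.

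Potassium channel genes had a wide peak in 26 of 92 cases (28.3%, 19.4 to 38.6) at a median length of 34.5 kb. Among all genes of 25.1 to 36.4 kb, 11.6% held a wide peak (10.2 to 13.0). Of the peaks of the potassium channel genes 1.22% were wide (0.854 to 1.70), an interval just above the 0.829% of all genes. Kcnj11 held a wide peak of 1751 bp with a fold of 5.12, and Kcnt1 held 3, the widest of 1563 bp with a fold of 4.85. Zfp zinc finger genes had 43 of 388 (11.1%, 8.14 to 14.6), near the share of all genes. Of their peaks 1.39% were wide (1.06 to 1.80), an interval also above 0.829%. Neighbouring peaks are not independent, so both intervals are narrower than the true error. Zfp523 led with 2749 bp and a fold of 6.46, followed by Zfp704 (2386 bp), Zfp526 (2180 bp) and Zfp607a (2138 bp). Endothelial genes had 3 of 20 (15%, 3.21 to 37.9), with a peak of 2176 bp and a fold of 7.54 in Erg, a transcription factor gene of blood vessels, 1393 bp at Eng and 1098 bp at Flt1.

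Genes of chromatin also had wide peaks at about the overall rate. Histone methyltransferase and demethylase genes had 6 of 40 (15%, 5.71 to 29.8), with 2071 bp and a fold of 5.39 in Dot1l, the gene of the enzyme that methylates lysine in the core of H3. Kdm4b (1533 bp), Smyd2 (1270 bp) and Ehmt2 (1126 bp) followed. H3 chaperone and H3.3 genes had 2 of 15 (13.3%, 1.66 to 40.5), in Mcm2 (1263 bp), which encodes a replicative helicase subunit that binds H3, and Cabin1 (1241 bp), which encodes a partner of the H3.3 chaperone HIRA.

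Short genes of large families held few or none. No wide peak was held by 352 vomeronasal receptor genes (exact upper limit 1.04%), 81 cytosolic ribosomal protein genes (4.45%) or 66 replication-dependent histone genes (5.44%). A wide peak was held by 10.6% of all protein-coding genes. Among the genes of these lists, 119, 58 and 13 held a narrower peak. Of the 264, 118 and 15 peaks of these lists, 0 were wide (exact upper limits 1.39%, 3.08% and 21.8%). These limits do not exclude the 0.829% of all genes. Of 1104 olfactory receptor genes, 3 held a wide peak (0.272%, 0.0561 to 0.792), namely Olfr524 (1077 bp), Olfr279 (1019 bp) and Olfr455 (1011 bp). Their 543 peaks were wide in 0.552% of cases (0.114 to 1.61), an interval that includes the 0.829% of all genes. Keratin genes had 2 of 49, in Krt42 (1209 bp) and Krt80 (1024 bp), and keratin-associated protein genes 2 of 56, in Krtap16-1 (1188 bp) and Krtap5-3 (1160 bp). These were 4.08% (0.498 to 13.98) and 3.57% (0.435 to 12.3) of the genes. Of their peaks 0.487% (0.0590 to 1.75) and 2.78% (0.338 to 9.68) were wide, and both intervals include the 0.829% of all genes. Among 18 globin and erythroid genes, 1 held a wide peak (5.56%, 0.141 to 27.3), an interval that includes the 10.6% of all genes. It was Hba-x, an embryonic globin gene, with 1014 bp. Of the 347 peaks of this list 0.288% were wide (0.0073 to 1.60), which does not exclude 0.829%.

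**Figure D5:**
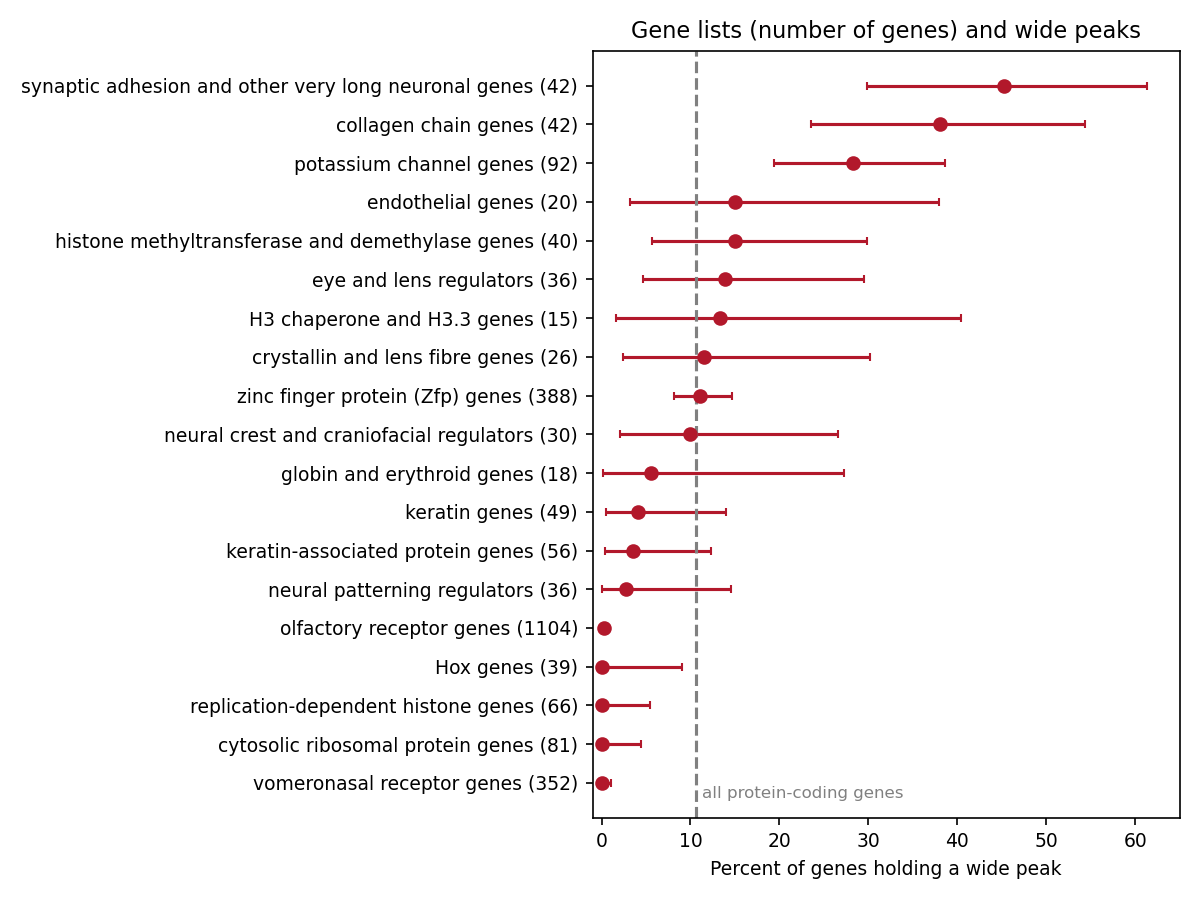
Percent of the genes of each list that held a wide peak in the body or within 1 kb of an end (horizontal axis), with 95% Clopper-Pearson intervals and the number of genes in brackets. The dashed line marks the 10.6% of all protein-coding genes. Very long neuronal genes (45.2%), collagen (38.1%) and potassium channel genes (28.3%) lie to its right with their whole interval.

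No wide peak touched a library 2 peak, so the second list gives no repeat of any member. Of the 118 autosomal peaks of library 2, 0 touched a wide peak (exact upper limit 3.08%) and 7 touched a narrower library 1 peak. Wide peaks covered 4.91 Mb and narrower peaks 143.7 Mb of an autosomal span of 2403 Mb. With so little of the span in wide peaks, a count of 0 among 118 says little about the members. Within 10 kb of a wide peak, measured between edges, lay 4 of the 118. For comparison, 6.63% of narrower library 1 peaks (6.57 to 6.70) had a wide peak within 10 kb, measured between summits. A link between the 2 lists was not tested. The closest of the 4 was chr17:56200008-56200089, with a fold of 35.2 in library 2. It lay 2045 bp from a wide peak of 1117 bp with a fold of 3.21 and 3483 bp from another of 1339 bp with a fold of 4.04.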

How the data were processed

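Each library had its own peak list in narrowPeak format, with 584724 peaks in library 1 and 348 in library 2. Per the submitters' processing notes, which give no settings, MACS2 2.1.0, Bowtie 1.1.2, Trimmomatic 0.33 and bcl2fastq 2.17 were used, with mm10 and hg38 as builds. The peak threshold and any control are not given in the sources used here. Positions were read as mm10 (GRCm38), the mouse build those notes name, and are counted from 1.

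The deposited lists give, per peak, a whole-number score made from the −log10 q, the fold enrichment of the summit as a ratio, the −log10 p-value and the −log10 q-value, all as the authors' caller wrote them per sample. Total reads per library are not given in the sources used here, so depth is described by pileup. The summit pileup and local background were solved from fold and −log10 p (tolerance 0.002). The fold was taken as their ratio with the same small constant added to both. A whole pileup was found for 100% of peaks. On 2969 simulated peaks 100% were recovered.

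Genes came from the RefSeq table of GRCm38.p6 (20665 autosomal protein-coding genes, ends only, no exons), and strand and promoter sequences from RefSeq promoter windows, which gave no entry on chromosome 18. Summits were classed in order as within 1 kb of a protein-coding gene end, inside such a gene, inside another gene, or between genes. Intervals on shares are 95% Clopper-Pearson, on counts 95% exact Poisson, and on medians from order statistics. They cover counting error only. No test was run: there is 1 library with members and no second condition. Python 3.11.15, NumPy 2.4.6, pandas 2.3.3 and SciPy 1.17.1 were used.

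The members, gene lists and settings were chosen with earlier results of these data known. Peaks named are the 12 widest and the 10 with the highest fold. Genes named are the 10 with the most wide peaks, the 10 most covered and, per list, up to 4 with the widest peak. Some genes that this rule names are not reported here. Genes of long runs, Eya2 and the 2 fullest windows were named after their values were seen. Rates around gene ends and along genes were also added after seeing the data.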

Additional observations from a re-analysis of the deposited data

Results flagged for a closer look

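Outside chromosomes 1 to 19, library 1 listed peaks of 1000 bp or more that the comparisons above do not use. There were 81 on the X chromosome. They made up 1.57% of its 5149 peaks (1.25 to 1.95), against 0.672% on the autosomes (0.651 to 0.693), while their density was only 0.483 per Mb (0.383 to 0.600), against 1.61 per Mb on autosomes. Their median fold was 5.39, against 3.77 for the narrower X peaks, and 8 of the 81 had a background over 2 times the genome-wide one. The widest spanned 5030 bp at chrX:170814978-170820007 with a fold of 5.74. Unplaced and unlocalised sequence held 11 such peaks (1.69% of 649, 0.849 to 3.01), with a median fold of 3.28 and a widest of 1620 bp. On the Y chromosome there were 3 of 2251 (0.133%, 0.0275 to 0.389). The cause of these differences was not tested.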

How the results depend on the processing

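Of 86 values recomputed for 9 results, 43 moved by more than 1.5 times the count or out of the interval given above. Several of the others could not change, such as those without library 2, which holds no member. With a width minimum of 800, 1500 or 2000 bp there were 9553, 581 and 125 wide peaks, and 4362, 396 and 89 genes held 1. The fold difference was then 0.946, 1.48 and 1.48, the share inside a gene 58.8%, 63.3% and 63.2%, and the share at a gene end 10.06%, 7.06% and 4.8%. At 2000 bp, 27.2% lay between genes and the densest chromosome held 6.93 times the density of the sparsest (0.987 to 301, which includes 1). The rate before a 3′ end over that beyond 10 kb was 3.14, 4.39 and 4.73.

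With a −log10 q of at least 10, 472 wide peaks and 216 genes were left, the fold difference was 0, the shares inside genes, at ends and between genes were 40.3%, 3.602% and 46.0%, and the 3′ ratio was 1.79. With at least 5, the fold difference was 0.431, 59.1% lay inside and 25.6% between genes, and the 3′ ratio was 3.24. Merging peaks at most 200 bp apart gave 11627 wide peaks, 4934 genes, a fold difference of 0.844, 10.6% at ends and 21.5% between genes. The fold difference was 0.539 against peaks from 500 bp to the minimum and 1.35 at the genome-wide background. Counting the whole peak, 55.6% lay inside genes and 14.4% at ends. With a window of 0.5 or 2 kb, 4.62% and 17.3% lay at gene ends. As a share of peaks, the chromosome ratio was 2.36. The cause of these shifts was not tested.

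The count of 0 shared with library 2 was also 0 with a width minimum of 800 bp, after merging and within 1 kb. The other alternatives for it only narrow the set and could not change it. Leaving out library 2 leaves the other 8 results as they are by construction (3875 wide peaks and 2200 genes), and without library 1 there are no members. No paired analysis was possible because only 1 library holds members and no groups are compared. Depth limits single peaks: a median summit of 19 reads.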
